A study of Mus musculus with 8 samples.

Results

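The colony-stimulating factors are secreted proteins that keep blood-forming and myeloid cells alive, dividing and maturing. The 10 genes described here are 4 ligand genes (Csf1, Csf2, Csf3 and Il34) and 6 receptor genes (Csf1r, Csf2ra, Csf2rb, Csf3r, Flt3 and Kit). They were taken by symbol from the deposited count table, which held all 10 among 24537 genes, and all 10 had enough counts to be tested.

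RNA came from EpCAM+ cells flow-sorted out of pancreatic tumours that arose in FVB/NJ mice with Tp53f/f, Rosa26LSL-Luc and Pdx1-Cre, in which the Pdx1 promoter drives Cre in the pancreas. All 8 mice had the same genotype and were given 50 mg/kg of gemcitabine, on days 1 and 4. The antibody, given on days 1, 3 and 5 in doses of 25 mg/kg, was control IgG (4 mice) or anti-LIF, which binds the cytokine leukaemia inhibitory factor (4 mice). Values are listed in 1 order throughout. For IgG the first is KPCL-PCC_203_G, followed by KPCL-PCC_343_G, then KPCL-PCC_345_G and last KPCL-PCC_393_G. For anti-LIF the first is KPCL-PCC_227_GA, followed by KPCL-PCC_310_GA, then KPCL-PCC_354_GA and last KPCL-PCC_391_GA. Treatment began at 42 to 43 days of age and whole tumours were taken on day 6, at about 48 days. Each mouse gave 1 library, and the series has no arm without gemcitabine, so every difference below is between antibodies given on top of gemcitabine.

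CSF1 and interleukin 34 both bind CSF1R, a receptor tyrosine kinase that monocytes and macrophages depend on. CSF2 (GM-CSF) binds a receptor made of an alpha chain (Csf2ra) and a signalling beta chain (Csf2rb), and CSF3 (G-CSF) binds CSF3R, the main receptor of the neutrophil lineage. FLT3 and KIT are receptor kinases related to CSF1R that serve early progenitors, dendritic cell development and mast cells. Pancreatic tumour cells are known to secrete GM-CSF and other myeloid growth factors, while the receptors are best known from myeloid cells.

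The sorted libraries held transcripts of both epithelial and myeloid cells. Genes in the table took 15135457 to 18972281 counts per library. Epcam, the sort marker, averaged 575 ± 76.8 CPM (counts scaled to the library size, which was adjusted by the trimmed mean of M values, TMM) with IgG and 305 ± 74.8 with anti-LIF (mean ± SD, n = 4 each; edgeR's quasi-likelihood test with Benjamini-Hochberg adjustment, adjusted p = 0.0102). The 18 epithelial marker genes took 0.648 to 0.789% of counts under IgG and 0.203 to 0.403% with anti-LIF. The 23 macrophage marker genes, none at 0, took 1.83 to 2.31% with IgG and 3.01 to 4.78% with anti-LIF. Neither pair of ranges overlapped (exact two-sided permutation p = 0.0286 for each, the smallest that 4 against 4 can give, and 0.0429 after adjustment over the 9 marker lists). The mast cell, acinar, endothelial and T cell lists had the same p. The adjusted value depends on how many lists reach that smallest p, so these lists stand or fall together. Fewer cells of a type and less RNA per cell cannot be told apart in such bulk libraries. Lif itself was higher with anti-LIF, at 127 ± 7.08 against 81.4 ± 15.6 CPM (adjusted p = 0.00964).

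Of the 6 receptor genes 3 rose with anti-LIF, and no ligand gene passed the test. Csf1r was 2.91-fold higher, Csf3r 3.24-fold and Csf2ra 1.64-fold, so 3 of the 10 genes were called higher and 0 lower at an adjusted p under 0.05. Over all 14711 genes tested, 15.7% were called higher, 16.5% lower and 32.2% in either direction, so that 48.7% of all calls were higher. With libraries scaled by their totals alone, 28.6% of all calls were higher, and the same 3 receptors kept their calls. At an unadjusted p under 0.05 the counts were 4 higher and 1 lower. DESeq2 called 4 higher and 0 lower, and limma-voom 3 and 0. In CPM on TMM library sizes, the arms did not overlap for 4 of the 10 genes, each higher with anti-LIF. Of all genes tested, 35.7% did not overlap in either direction and 17.6% were higher without overlap. In FPKM the arms of Csf2rb, 1 of the 4, did overlap. The median log2 fold change of the 10 genes was -0.09, and that of all genes tested was -0.01.

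**Figure D1:**
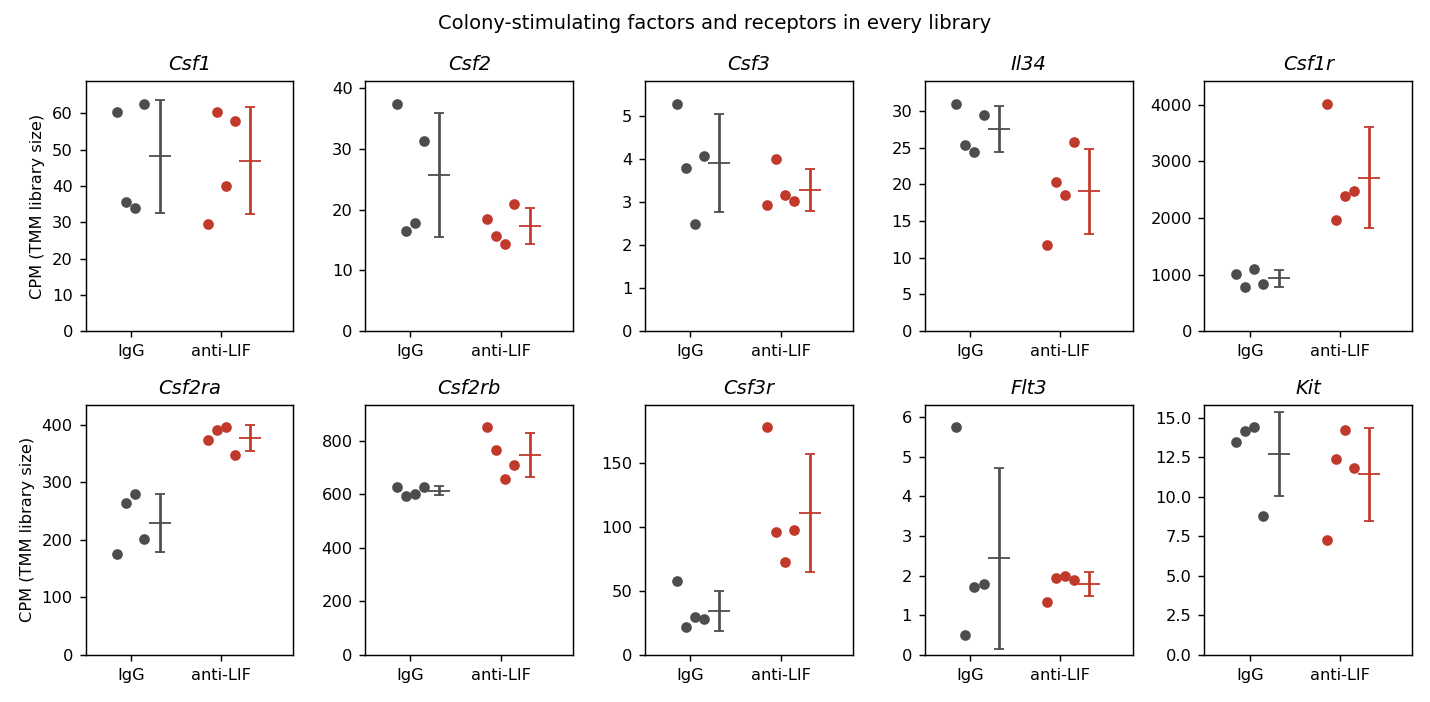
Level of each gene in every library, in CPM on TMM library sizes (y axis, from 0, with its own scale per gene), for IgG (grey) and anti-LIF (red). Points are single mice, and the bar beside them is the mean with its SD (n = 4). Csf1r, Csf2ra, Csf2rb and Csf3r have arms that do not overlap, and the other 6 genes do overlap.

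Per transcript length, the receptors for CSF1 and CSF2 far exceeded their ligands. On the deposited scale of FPKM, reads scaled to transcript length and to the library total, the mean over the 8 libraries was 365 for Csf1r, 130 for Csf2ra and 113 for Csf2rb. Csf2 followed at 17.0, Csf3r at 14.4, Il34 at 10.8 and Csf1 at 9.19, and Csf3 (2.13), Kit (1.88) and Flt3 (0.473) came last. Csf1r exceeded Csf2ra, Csf2rb exceeded Csf2, Csf1 exceeded Csf3 and Kit exceeded Flt3 in 8 of 8 libraries. The neighbours between them could not be ordered as firmly. Csf2ra exceeded Csf2rb in 6 of 8 libraries and Il34 exceeded Csf1 in 6, while Csf2 exceeded Csf3r in 4, Csf3r exceeded Il34 in 4 and Csf3 exceeded Kit in 5.

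Among the ligands, Csf1 differed between mice far more than between antibodies. With IgG it stood at 60.4, 35.5, 33.9 and 62.6 CPM, and with anti-LIF at 29.6, 60.3, 40.0 and 58.0 CPM. The arms spanned nearly the same range, with a high and a low pair in each. The log2 fold change was -0.04 ± 0.28 (SE; 95% interval -0.67 to 0.60; adjusted p = 0.932). The interval leaves room for a difference in either direction.

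Il34 encodes the second ligand of CSF1R, best known from keratinocytes and neurons. Its levels were 31.0, 25.3, 24.4 and 29.5 CPM with IgG and 11.7, 20.3, 18.5 and 25.7 CPM with anti-LIF. The other anti-LIF mice lay below every IgG mouse, and KPCL-PCC_391_GA lay inside the IgG range. The difference did not pass the test (log2 fold change -0.53 ± 0.21, 95% interval -1.02 to -0.05, unadjusted p = 0.0350, adjusted p = 0.0863). Without KPCL-PCC_391_GA it did, at -0.71 and an adjusted p of 0.0348.

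Exons of Il34 share 22 and 75 of 1959 bases, and those of Csf2 96 of 800, with antisense transcripts, whose reads could not be told apart without strand. Csf2, the GM-CSF gene, was measured at 37.4, 16.5, 17.8 and 31.2 CPM under IgG and at 18.5, 15.6, 14.4 and 21.0 CPM with anti-LIF. KPCL-PCC_203_G and KPCL-PCC_393_G were high, and the remaining 6 mice lay close together. The log2 fold change of -0.57 ± 0.27 (95% interval -1.19 to 0.05) did not pass the test (adjusted p = 0.142). Csf3, the G-CSF gene, was scarce, with 49 to 92 counts per IgG library and 45 to 60 per anti-LIF library. Its levels were 5.28, 3.79, 2.48 and 4.05 CPM with IgG and 2.94, 4.01, 3.15 and 3.02 CPM with anti-LIF. Its ranges overlapped (log2 fold change -0.25 ± 0.25, 95% interval -0.81 to 0.31, adjusted p = 0.469).

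The 4 ligand genes divided the IgG mice into the same pairs. KPCL-PCC_203_G and KPCL-PCC_393_G held the upper pair of levels of each of Csf1, Csf2, Csf3 and Il34, and KPCL-PCC_343_G and KPCL-PCC_345_G the lower pair, while the order within a pair varied. The pairing was not particular to the ligands, since Csf2rb and Flt3 divided the IgG mice in the same way. Csf2ra and Kit divided them the opposite way, with their lowest levels in KPCL-PCC_203_G and KPCL-PCC_393_G. Csf1r and Csf3r followed neither division. How many of all genes divide these mice in this way was not counted. Among the anti-LIF mice, KPCL-PCC_227_GA had the lowest Csf1, Csf3 and Il34 of the 4 but not the lowest Csf2.

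Csf1r, on chromosome 18, was the most abundant of the 6 receptors per transcript length. It stood at 1017, 775, 1106 and 835 CPM with IgG. With anti-LIF it stood at 4019, 1968, 2386 and 2483 CPM. The lowest anti-LIF mouse lay well above the highest IgG mouse, and KPCL-PCC_227_GA stood above the rest. Csf1r rose by 1.54 ± 0.24 on the log2 scale (95% interval 1.00 to 2.08, adjusted p = 0.00440), and by 1.29 to 1.68 with any 1 library left out. Exons of Csf1r share 873 of 5774 bases with Hmgxb3 on the opposite strand, and no source used here says whether reads were counted by strand. Hmgxb3 was at 8.76 ± 1.18 FPKM with IgG and 7.71 ± 0.462 FPKM with anti-LIF, where Csf1r was at 202 ± 33.1 and 528 ± 134 FPKM, and in the count test Hmgxb3 had an adjusted p of 0.646.

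Csf3r (mm10 chr4:126024659-126044975, plus strand) rose in the same mice from a much lower level. Its levels were 57.5, 21.9, 30.0 and 27.8 CPM with IgG and 178, 96.1, 72.5 and 97.8 CPM with anti-LIF. KPCL-PCC_203_G was the highest with IgG and KPCL-PCC_227_GA the highest with anti-LIF, and the arms did not overlap. The log2 fold change was 1.70 ± 0.36 (95% interval 0.89 to 2.51, adjusted p = 0.00969), and it ran from 1.38 to 2.06 with any 1 library left out.

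CSF3R is the receptor by which neutrophils respond to G-CSF, so the neutrophil markers are given beside it. The 20 listed genes took 0.105 ± 0.0162% of counts under IgG and 0.0968 ± 0.0299% with anti-LIF (exact permutation p = 0.714). Of the 15 that were tested, 2 were called higher and 2 lower, or 13.3% each way. Over all genes 15.7% were called higher and 16.5% lower. Ly6g, Elane, Mpo, Camp and Ngp, which mark neutrophils and their precursors, were each under 1 CPM on average. The genes that rose were Padi4, a histone deiminase of neutrophils, from 3.59 ± 2.81 to 22.8 ± 15.3 CPM (adjusted p = 0.0174) and Clec4d, a lectin of myeloid cells, from 50.3 ± 11.8 to 141 ± 97.2 (adjusted p = 0.0270). Of the 15 tested, 10 had a log2 fold change above 0. The genes that fell were Il1r2, a decoy receptor for interleukin 1, at 136 ± 13.7 CPM under IgG and 36.8 ± 22.1 with anti-LIF (adjusted p = 0.0134), and Cd177, a neutrophil surface protein, at 14.9 ± 5.16 and 4.95 ± 2.34 (adjusted p = 0.0117). The most abundant genes of the list, Trem1 and Lcn2, did not pass (adjusted p = 0.436 and 0.701).

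Csf2ra (mm10 chr19:61224402-61228418, minus strand) encodes the chain that binds GM-CSF itself. It was at 175, 265, 280 and 201 CPM under IgG and at 374, 391.1, 395 and 347 CPM with anti-LIF. The anti-LIF mice were close to each other and all above the IgG mice, which fell into a low and a high pair. Csf2ra rose by 0.71 ± 0.15 on the log2 scale (95% interval 0.37 to 1.06, adjusted p = 0.0104), and by 0.60 to 0.82 with any 1 library left out.

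Csf2rb (mm10 chr15:78325990-78351001, plus strand), the beta chain that carries the signal for GM-CSF, interleukin 3 and interleukin 5, had the smallest fold change of the 4 myeloid receptors. Its levels were 627, 594, 602 and 628 CPM with IgG and 850, 766, 658 and 710 CPM with anti-LIF. The arms did not overlap in CPM, and the IgG mice varied little. In FPKM, which is scaled by library totals, they overlapped, at 101 to 114 with IgG and 109 to 127 with anti-LIF. The difference of 0.28 ± 0.10 on the log2 scale (95% interval 0.05 to 0.52) did not pass the test (adjusted p = 0.0657), whereas DESeq2 gave 0.30 and an adjusted p of 0.0140. It did not pass with limma-voom either (0.28, adjusted p = 0.0582). It was smaller in edgeR with library totals alone (0.12, adjusted p = 0.328) and in limma-trend on log2(FPKM + 1) (0.15, adjusted p = 0.200).

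Mice carry a near copy of this gene, Csf2rb2 (mm10 chr15:78282508-78305721, minus strand), which pairs with the interleukin 3 receptor alpha chain, and the counting may have divided reads between them. The coding sequences, 2688 bases for Csf2rb and 2634 for Csf2rb2 in the GENCODE models, were identical at 93.0% of aligned positions. Windows of 50 bases were shared exactly for 26% of Csf2rb and 26.6% of Csf2rb2, and the longest shared run was 242 bases. The 90-base stretches with the most differences are shown because reads there tell the copies apart, with the 10 differing bases in capitals, at coding bases 336 to 425 of Csf2rb and 339 to 428 of Csf2rb2.
Csf2rb: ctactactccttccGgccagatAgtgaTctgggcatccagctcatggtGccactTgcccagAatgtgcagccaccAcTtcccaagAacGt
Csf2rb2: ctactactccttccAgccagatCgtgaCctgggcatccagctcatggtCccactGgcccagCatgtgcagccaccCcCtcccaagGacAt

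Csf2rb2 rose with anti-LIF, from 245 ± 11.9 to 332 ± 43.2 CPM (log2 fold change 0.44 ± 0.10, adjusted p = 0.0148), and its arms did not overlap. With both genes counted as 1, the sum was 858 ± 28.8 CPM with IgG and 1078 ± 123 with anti-LIF (log2 fold change 0.33 ± 0.11, adjusted p = 0.0498). That adjusted p lies just under 0.05, and the sum was fitted under the main setting only. Csf2rb made up 71.6, 71.9, 71.5 and 70.8% of the pair's counts in the IgG mice and 68.2, 70.3, 68.3 and 69.9% in the anti-LIF mice. That share was lower in every anti-LIF mouse than in any IgG mouse (exact two-sided permutation p = 0.0286, the smallest possible).

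Flt3 and Kit were low in both arms. Flt3, the receptor of early progenitors and dendritic cell precursors, had 100, 9, 34 and 33 counts in the IgG libraries and 21, 29, 32 and 28 in the anti-LIF libraries. KPCL-PCC_203_G alone, at 5.73 CPM, exceeded 2 CPM, and its 100 counts were more than those of the other 3 IgG mice together. The log2 fold change of -0.44 ± 0.60 (adjusted p = 0.600) became 0.41 without that mouse, and neither value passed the test. Kit, the stem cell factor receptor, was at 13.5, 14.2, 14.4 and 8.81 CPM under IgG and 7.28, 12.4, 14.2 and 11.8 CPM with anti-LIF. These ranges overlapped (log2 fold change -0.15 ± 0.23, 95% interval -0.68 to 0.37, adjusted p = 0.641).

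Most listed markers of mast cells, which depend on KIT, were scarce in these libraries. Of 12 genes listed as mast cell markers, 7 (Cpa3, Tpsb2, Cma1, Fcer1a, Ms4a2, Gata2 and Mrgprb2) were under 1 CPM on average. The list took 0.0135% of counts under IgG and 0.00574% with anti-LIF (exact permutation p = 0.0286). Of its 6 tested genes 2 were called lower, 33.3% against 16.5% of all genes. These were the proteases Mcpt1 and Mcpt2, at 54.4 ± 12.1 and 52.7 ± 17.3 CPM under IgG and 20.4 ± 11.4 and 19.9 ± 7.35 with anti-LIF (adjusted p = 0.0231 and 0.0106). Mcpt8, which the list also holds, was at 13.4 ± 7.60 and 14.4 ± 6.22 CPM and did not pass (adjusted p = 0.867).

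Related ligands and receptor chains moved in both directions. Of 13 listed genes, 8 were tested, 2 rose and 2 fell, or 25% each way against 15.7% higher and 16.5% lower over all genes. Flt3l, the ligand of FLT3, stood at 2.64, 1.32, 2.03 and 1.89 CPM under IgG and 12.5, 7.21, 9.64 and 5.64 CPM with anti-LIF, with every anti-LIF mouse above every IgG mouse. It rose by 2.15 ± 0.30 on the log2 scale (4.44-fold, adjusted p = 0.00370), while its receptor gene Flt3 had 9 to 100 counts per library. Csf2rb2, given above, was the other gene that rose. Sdc1, a cell-surface proteoglycan known to bind interleukin 34, fell from 627 ± 108 to 277 ± 50.2 CPM (log2 fold change -1.18 ± 0.17, adjusted p = 0.00382). Thpo, the thrombopoietin gene, fell from 1.06 ± 0.186 to 0.307 ± 0.128 CPM, which is 79 counts over the IgG libraries and 19 over the anti-LIF libraries (adjusted p = 0.00824).

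The 4 tested relatives without a call were Kitl, Il3ra, Epor and Ptprz1. Kitl, the KIT ligand, had a log2 fold change of -0.40 ± 0.34 (adjusted p = 0.397), and 1 IgG mouse, KPCL-PCC_393_G, stood at 48.2 CPM against 15.4 to 27.0 in the other 7. Il3ra, the interleukin 3 receptor alpha chain, gave 0.05 ± 0.17, and Epor, the erythropoietin receptor, 0.06 ± 0.19 (adjusted p = 0.855 and 0.833). Ptprz1, a second receptor described for interleukin 34, gave 0.68 ± 1.12 (adjusted p = 0.671). Il3, Il5 and Il5ra were among those with too few counts to be tested, and Epo had 0 counts in all 8 libraries.

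**Figure D2:**
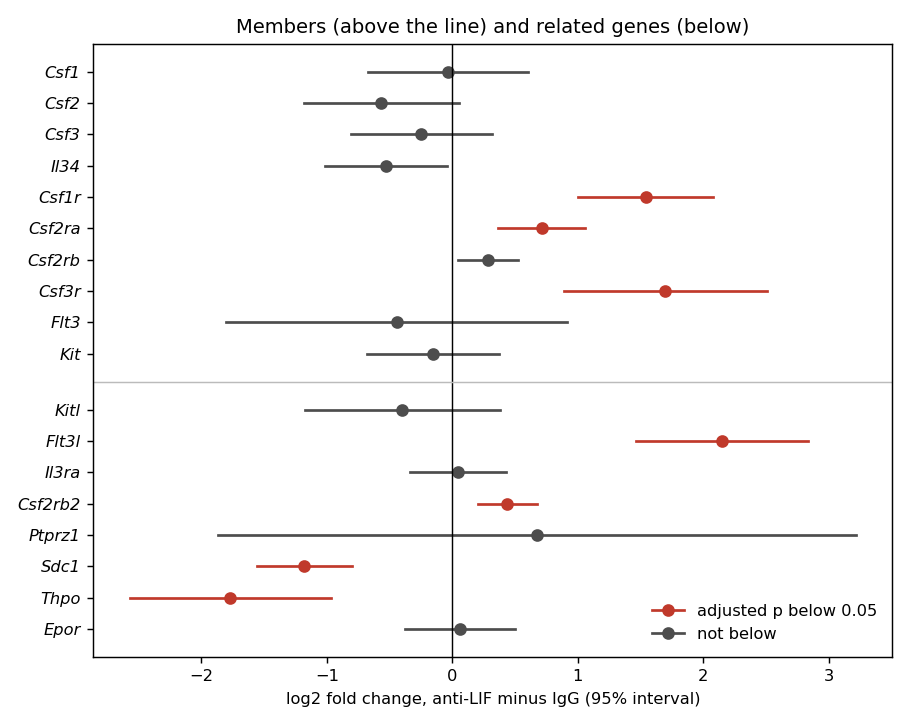
Log2 fold change of anti-LIF minus IgG (x axis) with its 95% interval for the 10 genes (above the grey line) and the 8 tested relatives (below it), from edgeR's quasi-likelihood fit. Red marks an adjusted p below 0.05: Csf1r, Csf2ra, Csf3r, Flt3l and Csf2rb2 lie to the right of 0, and Sdc1 and Thpo to the left.

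Receptor to ligand ratios within a library do not depend on how libraries are scaled. The 12 ratios computed were chosen after the values had been seen, and they are the only ratios computed. Csf1r exceeded Csf1 14.4- to 35.2-fold in FPKM with IgG and 35.3- to 147-fold with anti-LIF, so the highest IgG mouse and the lowest anti-LIF mouse were almost level. Csf1r over Il34 separated the arms more widely, at 12.8 to 20.7 with IgG and 43.6 to 155 with anti-LIF.

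The ratio of Csf2ra to Csf2 was 2.61 to 8.99 with IgG and 9.23 to 15.4 with anti-LIF, and that of Csf3r to Csf3 was 2.01 to 4.22 and 8.02 to 21.1. Flt3 over Flt3l went the other way, at 0.102 to 0.615 with IgG and 0.0299 to 0.0971 with anti-LIF. Kit over Kitl overlapped, at 0.193 to 0.943 and 0.501 to 0.711. Between receptors, Csf1r and Csf3r were higher with anti-LIF relative to Csf2rb, by 1.22 and 1.44 on the log2 scale, with arms that did not overlap.

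The ratio of Csf1r to Csf3r differed by -0.21 on the log2 scale, with overlapping arms (exact permutation p = 0.486). Csf1r to Csf2ra, Csf2ra to Csf2rb and Csf3r to Csf2ra also overlapped, with differences of 0.77, 0.46 and 0.98. The 7 ratios without overlap each had an exact two-sided permutation p of 0.0286, the smallest possible, and 0.0490 after adjustment over the 12. An adjusted p below 0.05 needs at least 7 of the 12 ratios at that smallest p, with all libraries as with 1 left out. The 7 calls thus stand or fall together, and that of Flt3 over Flt3l (0.102 against 0.0971) rests on 9 Flt3 counts in KPCL-PCC_343_G. Several of the 7 reuse Csf1r or Csf3r, whose own arms did not overlap. The share of other gene pairs that separate was not computed. None of the 7 passed with any single library left out (adjusted p from 0.0571 to 0.171), which the design largely sets and which says nothing of stability. Each kept its direction.

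**Figure D3:**
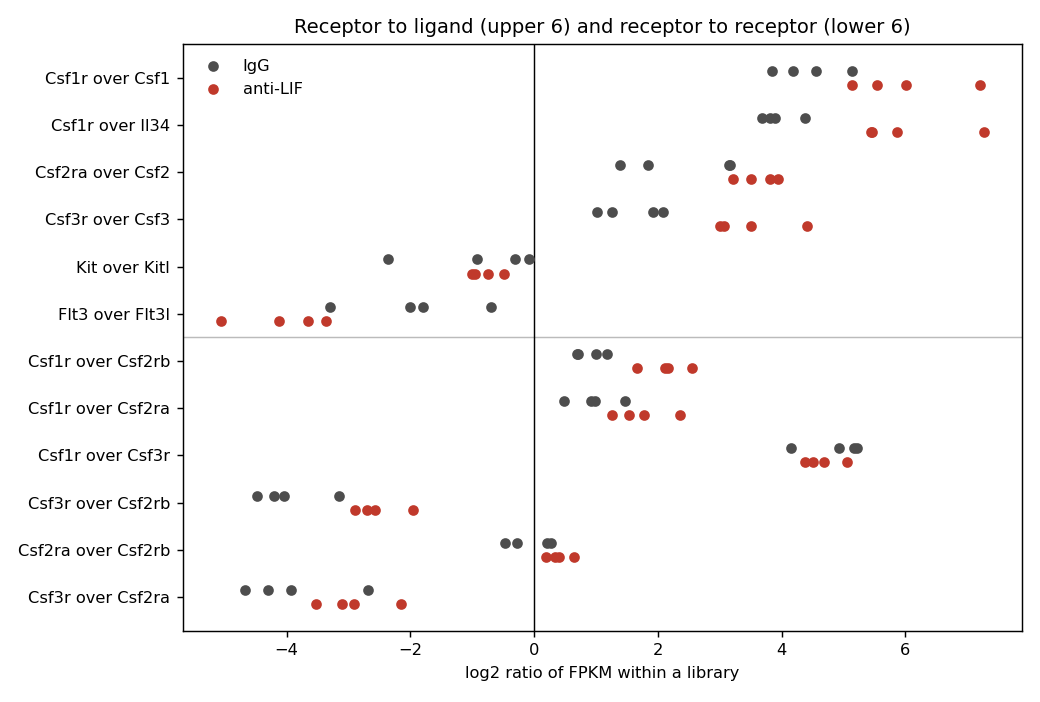
Log2 ratio of FPKM between genes of the same library (x axis), for IgG (grey) and anti-LIF (red), 1 point per mouse and n = 4 per arm. The upper 6 rows set a receptor over its ligand and the lower 6 a receptor over another receptor. The arms separate in 7 of the 12 rows, with anti-LIF above in 6 and below in Flt3 over Flt3l.

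Many genes that act below these receptors were higher with anti-LIF under the main scaling. Of 42 listed kinases, adaptors, phosphatases and transcription factors, all tested, 23 were called higher and 0 lower, which is 54.8% against 15.7% of all genes. The list's median log2 fold change was 0.45, against -0.01 for all genes tested. At an unadjusted p under 0.05 the counts were 24 higher and 1 lower, DESeq2 called 24 and 0, and limma-voom called 22 and 0. The list was not drawn up independently of earlier results on these libraries. The direction depends on the scaling: scaled to the macrophage marker list, 0 of the 42 were called higher and 22 lower, and scaled to the epithelial list 42 were called higher.

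Those with the lowest p included a kinase, a phospholipase and an adaptor that myeloid cells use. Lyn, a Src-family kinase, rose from 197 ± 18.5 to 320 ± 31.5 CPM (adjusted p = 0.00418), Plcg2, a phospholipase below CSF1R, from 133 ± 8.65 to 216 ± 23.3 (adjusted p = 0.00362), and Themis2, an adaptor that binds GRB2, from 45.1 ± 6.98 to 93.1 ± 17.1 (adjusted p = 0.00440).

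The JAK and STAT genes of cytokine receptor signalling were split. Jak1 (log2 fold change 0.39 ± 0.11, adjusted p = 0.0258), Stat5b (0.56 ± 0.15, adjusted p = 0.0234) and the STAT5 target Cish (0.73 ± 0.19, adjusted p = 0.0214) rose. Jak2 (0.16), Stat5a (0.26), Stat3 (-0.06), Socs1 (0.14), Socs2 (-0.08) and Socs3 (0.32) did not pass. Negative regulators were among the genes that rose, including the phosphatases Ptpn6 (0.92 ± 0.14, adjusted p = 0.00440) and Inpp5d (0.57 ± 0.13, adjusted p = 0.0144). The adaptor Shc1 (-0.18), the RAS exchange factor Sos1 (-0.20) and the phosphatase Ptpn11 (-0.14), which most cell types express, did not pass. These 9 genes without a call and the others in this group were picked after their values were seen, except Lyn, Plcg2 and Themis2.

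**Figure D4:**
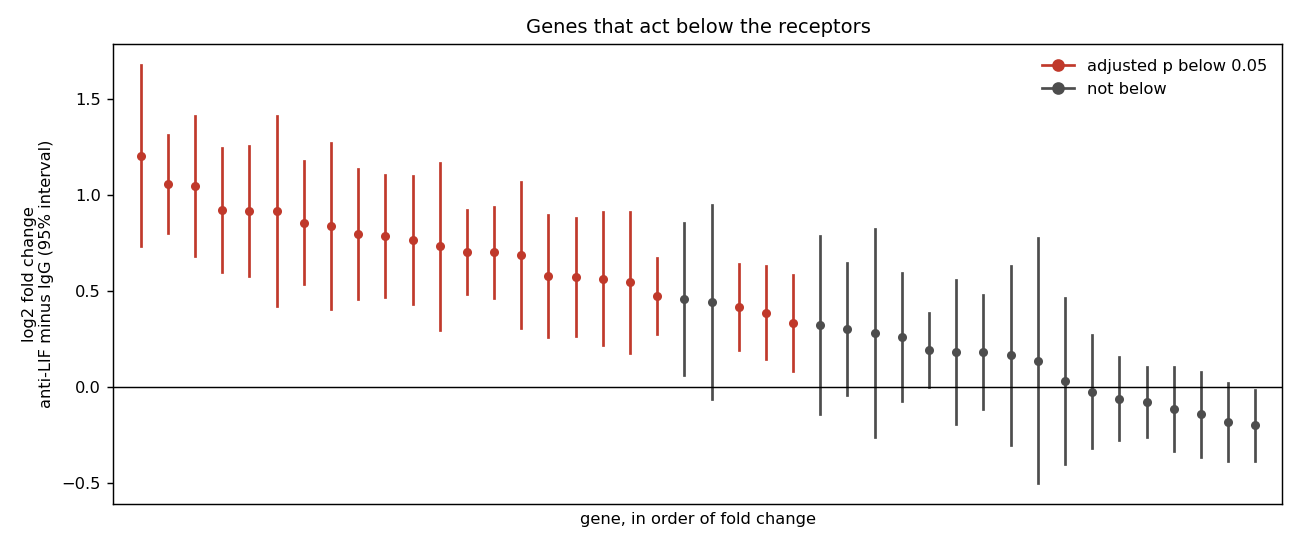
Log2 fold change of anti-LIF minus IgG (y axis) with its 95% interval for the 42 genes listed as acting below the receptors, 1 point per gene in order of fold change (x axis). Red marks an adjusted p below 0.05, which 23 genes reached, all above 0. The 7 genes with a fold change below 0 are grey.

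Spi1 encodes PU.1, a transcription factor known to drive the promoters of Csf1r, Csf2ra and Csf3r in myeloid cells. It rose from 150 ± 21.4 to 258 ± 41.5 CPM (log2 fold change 0.79 ± 0.14, adjusted p = 0.00587). Its partner Irf8 rose by 0.79 ± 0.15 (adjusted p = 0.00676) and Cebpa by 0.54 ± 0.16 (adjusted p = 0.0319), while Cebpb (0.28) and Runx1 (0.19) did not pass.

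RefSeq start sites with upstream sequence (GRCm38.p6) were used for 6 of the 10 genes, Csf1, Csf2, Csf2ra, Csf3r, Flt3 and Kit. Csf1r, which rose with anti-LIF, was not searched. The 250 bases before each start were searched on both strands for GAGGAA, the core of PU.1 sites. Csf2ra held 2 matches and Csf3r and Kit 1 each, while Csf1, Csf2 and Flt3 held none. Of 27025 genes, 25.9% held at least 1 match in such a window and 4.11% held 2 or more. A match describes the letters only. The 100 bases before the start are shown for the 2 of these 6 genes that rose, with the matches in capitals. They lie at chr19:61228419-61228518 on the minus strand for Csf2ra and chr4:126024559-126024658 on the plus strand for Csf3r.
Csf2ra: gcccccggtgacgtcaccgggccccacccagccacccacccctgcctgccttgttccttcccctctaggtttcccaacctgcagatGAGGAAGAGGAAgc
Csf3r: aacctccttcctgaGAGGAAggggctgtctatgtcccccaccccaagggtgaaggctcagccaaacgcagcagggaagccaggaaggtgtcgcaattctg
In Csf2ra the matches begin 14 and 8 bases before the start and adjoin each other, and in Csf3r the match begins 86 bases before it.

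Macrophage markers moved with the receptors. Of 23 listed and tested, 14 were called higher and 0 lower, with a median log2 fold change of 0.92. That is 60.9% called higher against 15.7% of all genes. Lyz2, the lysozyme of macrophages and neutrophils, rose from 4176 ± 718 to 13510 ± 5782 CPM (adjusted p = 0.00592), Aif1 from 23.8 ± 4.22 to 83.5 ± 6.39 (adjusted p = 0.00142) and Ms4a7 from 16.0 ± 5.08 to 139 ± 34.8 (adjusted p = 0.00206). Ctss, a lysosomal protease, was at 3218 ± 531 and 3202 ± 256 CPM (adjusted p = 0.976). KPCL-PCC_227_GA, with the highest Csf1r, Csf2rb and Csf3r, also had the highest macrophage share (4.78%) and the lowest epithelial share (0.203%).

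The receptors differed in how they stood relative to those markers. With libraries scaled to the summed macrophage list, where all genes tested had a median of -0.95, Csf1r was higher by 0.52 (adjusted p = 0.0167) and Csf3r by 0.64 (adjusted p = 0.0497), whereas Csf2ra turned to -0.22 (adjusted p = 0.403) and Csf2rb to -0.69 (adjusted p = 0.00723). On that scale the ligands ran from -1.55 for Csf2 to -0.94 for Csf1, and Flt3 and Kit were at -1.36 and -1.03. With libraries scaled to the epithelial list, where that median was 1.06, all 10 genes had positive values, and all but Csf2 (0.51) and Flt3 (0.61) were called higher. The part of cell composition in these differences was not tested.

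Markers of other cell types gave a mixed picture beside the receptors. The 14 dendritic cell markers took 0.0629% of counts under IgG and 0.0836% with anti-LIF, with overlapping arms (exact permutation p = 0.229), and within them Cd209a rose from 5.51 ± 3.76 to 36.7 ± 20.0 CPM (adjusted p = 0.00816) and Batf3 from 1.78 ± 0.613 to 7.11 ± 4.54 (adjusted p = 0.0124). Fscn1, an actin-bundling protein of mature dendritic cells and of many tumour cells, fell from 103 ± 18.0 to 54.2 ± 14.9 CPM (adjusted p = 0.0131). The most abundant of the list, Clec10a and Itgax, did not pass (adjusted p = 0.189 and 0.450). Acinar markers rose from 0.121 to 0.867% of counts and endothelial markers from 0.00869 to 0.0130% (exact permutation p = 0.0286 each). The median log2 fold change of the 12 endothelial genes was -0.28, of the opposite sign, and Eng alone went from 30.5 ± 6.53 to 91.7 ± 27.8 CPM. T cell markers rose from 0.00375 to 0.00597% (exact permutation p = 0.0286). Of the 12 T cell genes counted, 8 were under 1 CPM on average, Cd3d, Cd3e and Cd3g among them, and the most abundant were Foxp3 and Cd4. Fibroblast markers took 0.0574% with IgG and 0.0667% with anti-LIF (exact permutation p = 0.743).

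Genes with the most similar pattern were sought by Pearson's r of deviations from the arm mean of log2 CPM over the 8 libraries, among about 10180 genes of at least 10 CPM. With so many genes and 8 libraries that share depth and cell makeup, high values are given as a description. Csf1r was nearest to Fyb (r = 0.991), an adaptor of T cells and myeloid cells that rose 3.34-fold, and to Glul (r = 0.990), which did not pass. Csf1 was nearest to Maged1 (0.995) and to the collagen gene Col5a1 (0.992). Csf2 was nearest to Ifi44 and Pkn3 (0.984 and 0.980), Csf3 to Birc6 and Med26 (0.959 and 0.951), and Il34 to Ttc9 and Eml1 (0.984 and 0.980). Of the other receptors, Csf2ra was nearest to Nucks1 and Mettl5, Csf2rb to Mfhas1 and Dolk, Csf3r to Atf6 and Slc10a3, Flt3 to Cd4 and Ubl4a, and Kit to Agap2, with r from 0.965 to 0.993.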

How the data were processed

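Polyadenylated RNA of 8 sorted tumour samples was sequenced. Per the submitters' processing notes, reads were checked with FastQC 0.11.2, aligned to mm10 with STAR 2.4.0k and counted with HOMER, and edgeR 3.6.8 is named. The authors deposited raw counts of reads for 1 transcript per gene. The deposited FPKM are those counts divided by transcript length and library total (168000 of 168000 values matched within 0.002 FPKM). No source used here gives the strand setting, annotation version, sequencing batch or date, and 1 allele of the genotype and some genes are not reported here. Replicates are separate mice, per the labels.

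Arms were compared over all 8 libraries in R 4.3.3 with edgeR 4.0.16 (filterByExpr, TMM, quasi-likelihood test, no covariate), adjusting over 14711 genes with a threshold of 0.05. Fold changes are anti-LIF minus IgG. Permutation tests used all 70 assignments. Log2 CPM used a prior count of 2. Alternatives were other scalings and filters, DESeq2 1.42.0, limma 3.58.1 (voom, and trend on log2 FPKM plus 1 or 0.1) and each library left out. In simulated counts, 9.0% of 1.5-fold, 53.7% of 2-fold and 92.4% of 4-fold changes were recovered. Only 67, 67 and 66 of 14711 genes were changed at these folds, against 32.2% of genes called in the data. The adjustment was therefore stricter in the simulation, and these percentages are not the power of the test in these data.

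The genes and lists were chosen with earlier results of these data known. Named were all 10 genes, tested relatives, the 4 signalling genes of lowest p, the 2 most abundant genes of a marker list or, for myeloid lists, also the 2 of lowest p, Lif, Epcam and 2 nearest genes each. Not every gene this rule gives is printed. Any other gene was picked after its value was seen.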

Additional observations from a re-analysis of the deposited data

Results flagged for a closer look

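There were 5 values that stood apart from the other 3 mice of their arm by Dixon's ratio, of 58 arm values examined, and chance gives about 1 in 20. In Kit, IgG mouse KPCL-PCC_393_G had 8.81 CPM against 13.5 to 14.4 in the others. In Flt3, anti-LIF mouse KPCL-PCC_227_GA had 1.34 CPM against 1.88 to 1.98. Ptprz1 was at 5.30 CPM in IgG mouse KPCL-PCC_393_G and at 0.439 to 0.688 in the rest of its arm. In anti-LIF mouse KPCL-PCC_227_GA the genes that act below the receptors took 0.912% of counts against 0.818 to 0.833%, and T cell markers took 0.00471% against 0.00636 to 0.00642%.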

How the results depend on the processing

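The calls of Csf1r and Csf3r held under every alternative, and that of Csf2ra under all but scaling to the macrophage markers. With 1 library left out, members called lower ran from 0 to 1 (Il34 without KPCL-PCC_391_GA), signalling genes called higher from 18 to 23, and all genes called from 1467 to 2218 higher and from 1507 to 2136 lower, with 1467 and 1507 without KPCL-PCC_343_G and 1521 lower without KPCL-PCC_354_GA. Library totals alone moved the median of all genes to -0.16 and gave 1430 genes higher and 3567 lower, and limma-trend on log2(FPKM + 0.1) moved it to -0.13 and gave 1535 and 3344.

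Scaling to the macrophage list gave 233 genes higher and 11127 lower, 7 members lower, 0 signalling genes higher and 22 lower, and 1 relative higher and 6 lower. It turned Csf2ra to -0.22, Csf2rb to -0.69, Il3ra to -0.96, Csf2rb2 to -0.54, Ptprz1 to -0.16 and Epor to -0.90. Scaling to the epithelial list gave 11337 genes higher and 157 lower, 8 members, 42 signalling genes and 4 relatives higher, and 0 relatives lower. It turned Csf1 to 0.96, Csf2 to 0.51, Csf3 to 0.81, Il34 to 0.46, Flt3 to 0.61, Kit to 0.86 and Kitl to 0.64. Signalling genes called lower were 1 with upper-quartile scaling, 2 with library totals and 1 with limma-trend at either pseudocount. Filters of 1 CPM in 4 libraries or 10 counts in every library left 1 relative called lower, because Thpo was no longer tested. Counted as 1 gene, Csf2rb and Csf2rb2 passed at 0.33, just under the threshold (edgeR adjusted p = 0.0498), and the sum was not fitted under the alternatives.

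Genes without a call changed sign in places. Flt3 was 0.043 with limma-voom and 0.13 with sample weights, which turned Csf1 to 0.16 and Il3ra to -0.055, and Ptprz1 was -0.020 with limma-voom. Il3ra and Epor were -0.13 and -0.10 with library totals, -0.090 and -0.036 on log2(FPKM + 1) and -0.10 and -0.070 on log2(FPKM + 0.1). With 1 library left out, Csf1 ran from -0.17 to 0.13, Flt3 from -0.78 to 0.41, Kit from -0.29 to 0.016, Kitl from -0.58 to 0.020, Il3ra from -0.11 to 0.15, Ptprz1 from -0.16 to 2.34 and Epor from -0.025 to 0.15. The cause was not tested.

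Ratio differences with 1 library left out ran from 1.13 to 1.81 for Csf1r over Csf1, 1.65 to 2.26 for Csf1r over Il34, 0.90 to 1.49 for Csf2ra over Csf2, 1.62 to 2.09 for Csf3r over Csf3, -2.55 to -1.69 for Flt3 over Flt3l, 1.08 to 1.38 for Csf1r over Csf2rb, 1.25 to 1.71 for Csf3r over Csf2rb and -0.36 to 0.40 for Kit over Kitl. No paired analysis was possible because the arms share no mouse number. Flt3, Csf3 and Thpo rest on few counts. Changes of 1.5-fold were mostly missed in the simulation, in which far fewer genes changed than were called in these data.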
